A study of Homo sapiens with 4 samples.

Results

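The B cell receptor signalling genes examined here are 9 of the 19974 genes annotated as protein-coding on the autosomes and X. They encode the receptor's signalling chains (CD79A and CD79B), kinases (LYN, BLK and BTK), adaptors (BLNK and DAPP1) and inhibitory parts (CD22 and PTPN6). They were chosen by name for their place in the pathway, with earlier results of these data known. A peak was assigned to a gene when its summit lay inside the gene or within 50 kb of either annotated end. Occupancy of BCL6 was profiled by CUT&RUN, in which an antibody guides a nuclease to cut chromatin around its target. The cells were SUDHL5, an established line of diffuse large B-cell lymphoma, grown in culture with no treatment named. The 2 biological replicates with the BCL6 antibody came with 5237 and 3536 peaks, and the gene windows held 27 peaks of replicate 1 and 19 of replicate 2. The 2 libraries made with normal rabbit IgG were not analysed here, and read totals are unknown. With a single cell line and no second condition, the values describe where BCL6 peaks lay and not a response, and the files hold no expression data.

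BCL6 is a transcriptional repressor that germinal centre B cells require. When antigen binds the B cell receptor, the kinase LYN phosphorylates tyrosine motifs in the tails of CD79A and CD79B, which recruit SYK. The adaptor BLNK then brings BTK and phospholipase C together. CD22 carries inhibitory tyrosine motifs that recruit the phosphatase encoded by PTPN6, which dampens the signal. Germinal centre B cells are known for muted receptor signalling.

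At CD22 and BLNK a peak summit fell in the 250 bases before a RefSeq start, so these 2 stretches are shown. Each runs 5′ to 3′ on the gene's strand in build GRCh38.p14, and the 21 bases centred on the replicate 1 summit are in capitals. The CD22 stretch is chr19:35328937-35329186 on the plus strand, and the BLNK stretch is chr10:96271570-96271819 on the minus strand.
CD22: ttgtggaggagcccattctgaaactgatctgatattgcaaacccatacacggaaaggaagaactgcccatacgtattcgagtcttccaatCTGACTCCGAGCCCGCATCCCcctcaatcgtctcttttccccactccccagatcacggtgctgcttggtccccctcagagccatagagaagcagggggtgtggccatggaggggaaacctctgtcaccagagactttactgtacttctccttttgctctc
BLNK: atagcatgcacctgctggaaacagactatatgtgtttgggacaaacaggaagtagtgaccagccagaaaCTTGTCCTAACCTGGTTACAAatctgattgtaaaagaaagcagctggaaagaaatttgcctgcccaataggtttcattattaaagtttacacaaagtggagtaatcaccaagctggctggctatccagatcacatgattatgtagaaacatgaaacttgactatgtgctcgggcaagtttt

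The RefSeq promoter table holds 8 such stretches for 6 of the genes, with none for CD79B, BLK and LYN. On either strand, 0 of the 8 held the BCL6 consensus TTCCTAGAA, its core TTCCTAG or the wider palindrome TTCNNNGAA, which contains the consensus. Among all 35116 promoters of the table, 0.313% held the first of these, 3.07% the core and 6.57% the palindrome. The E-box CANNTG was in 6 of the 8 stretches, with 3 matches at BLNK and 0 at CD22, and in 61.8% of all promoters. The GC box GGGCGG was in 4 of 8, at BTK and PTPN6, and in 42.6% of all. The octamer ATTTGCAT and the ETS motif CCGGAAGT were in 0 of 8, against 1.63% and 3.42% of all. These are matches of letters in short stretches and say nothing of binding outside them.

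Most of the genes had BCL6 peaks nearby. A replicate 1 peak lay in the window of 8 of the 9 genes (background 29.5% of all protein-coding genes), with BTK the exception, and a replicate 2 peak in 8 of 9 (background 23.3%), with CD79A the exception. Peaks of each list were found at 7 genes (77.8%, Wilson 95% interval 45.3 to 93.7), against 15.6% of all genes. At the same 7 genes a replicate 1 and a replicate 2 peak overlapped by at least 1 bp, which is called a shared region below, against 10.2% of all genes. The genes had medians of 2 replicate 1 peaks, 1 replicate 2 peak and 1 shared region, and the median of all genes was 0 for each. A longer window can hold more peaks, and the median window was 141 kb for the 9 genes and 124 kb for all. The mean windows lay in the opposite order, 147 kb and 165 kb. Per 100 kb of window the 9 genes had a median of 2.88 peaks of both lists together, a density that 4.58% of all genes reached. The 9 genes were chosen with earlier results of these data known and were not drawn at random. The Wilson interval therefore says nothing on whether chance could give such a share, and shares over 9 chosen genes were not tested.

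**Figure D1:**
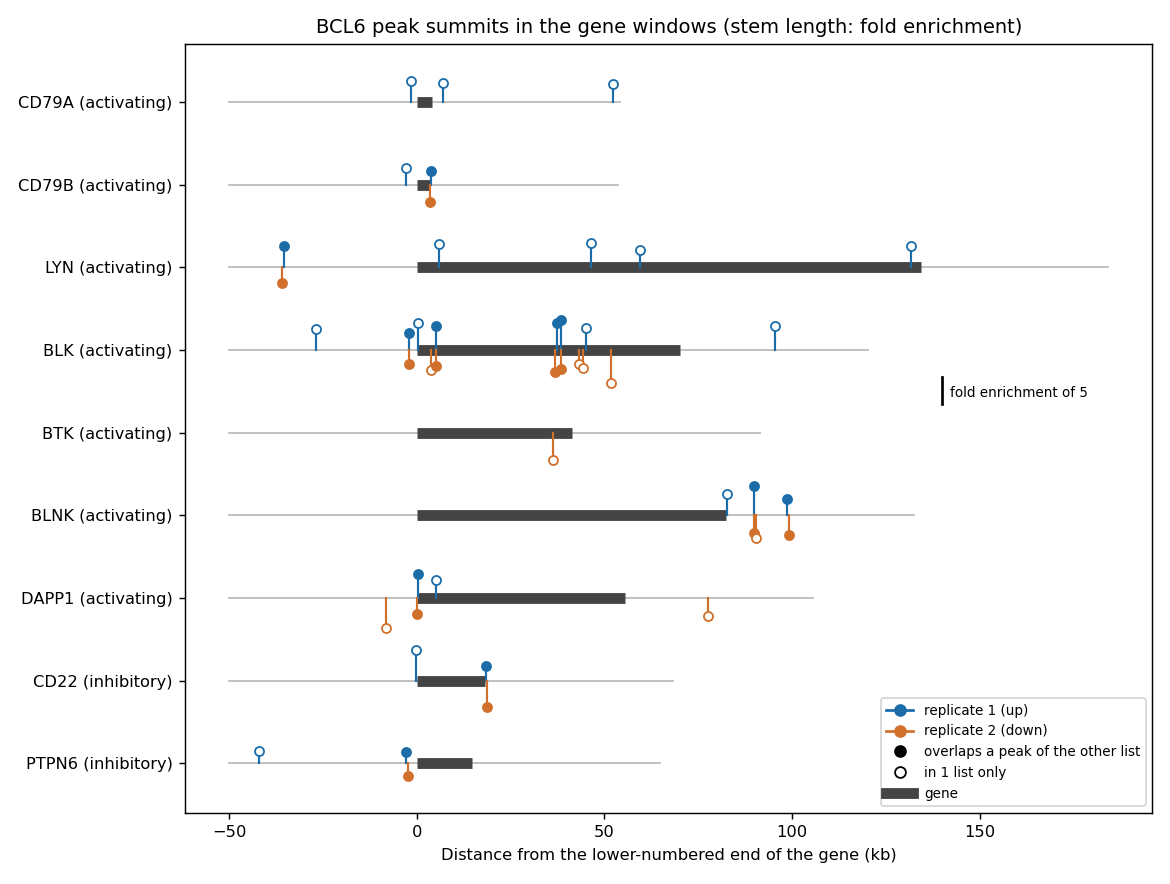
BCL6 peak summits in the window of each gene, by distance in kb from the lower-numbered end of the gene, with replicate 1 stems pointing up, replicate 2 stems pointing down and stem length proportional to fold enrichment. Filled points overlap a peak of the other list. BLK holds 16 of the 46 summits, while BTK holds 1.

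**Figure D2:**
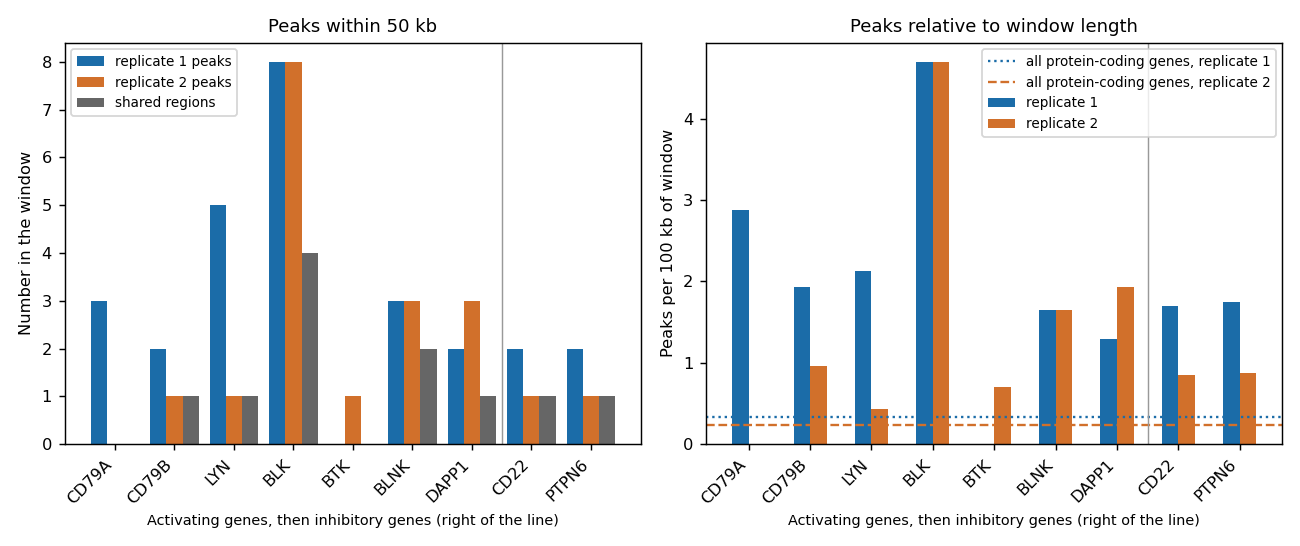
Peaks per window (left) and peaks per 100 kb of window (right) for each gene and replicate, with activating genes left of the inhibitory ones; lines mark the density over the windows of all protein-coding genes. BLK reaches 4.70 per 100 kb in each replicate, against 0.329 and 0.235 for all genes.

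In all, the 46 peaks formed 35 regions, of which 11 were shared, 16 were in replicate 1 alone and 8 in replicate 2 alone. Of the replicate 1 peaks at these genes, 11 of 27 overlapped a replicate 2 peak (40.7%, Wilson 95% interval 24.5 to 59.3), against 25.7% of the whole list. Of the replicate 2 peaks, 11 of 19 overlapped a replicate 1 peak (57.9%, 36.3 to 76.9), against 38.4% of the whole list. The interval of each list at these genes is wide: that of replicate 1 includes the share of its whole list, and that of replicate 2 does too. These intervals treat the peaks as independent, which they were not. BLK alone held 8 of the peaks of each list and 4 of the 11 shared regions. The intervals are therefore no test of a difference from the lists. Summits of the other list lay within 10 kb for 17 of 19 replicate 2 peaks (89.5%), against 61.7% of the whole list. For replicate 1 it was 16 of 27 peaks (59.3%), against 46.9%. Both counts include the 11 overlapping peaks of each list, and neither share was tested.

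The peaks at these genes lay within the range of the lists. The authors' fold enrichment, which sets the summit against its local background, had a median of 3.96 at these genes in replicate 1 (2.12 to 5.62), against 3.55 in the whole list. In replicate 2 it was 3.35 (2.40 to 6.09), against 3.74. Summit pileups, the number of reads or fragments over the summit as recovered from the authors' values, had medians of 25 and 20, against 23 and 21. Such small pileups carry wide counting error: a pileup of 25 has an exact Poisson 95% interval of 16.2 to 36.9. The intervals cover counting error only. None of these peaks approached the highest fold enrichments of the lists, 18.8 and 18.2.

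**Figure D3:**
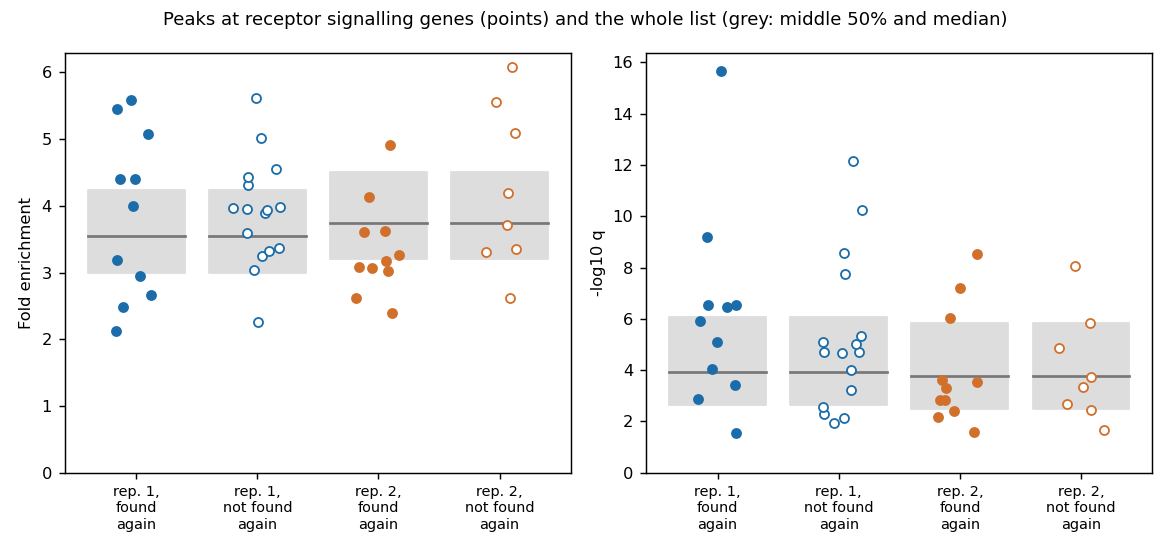
Fold enrichment (left) and −log10 q (right) of each peak at the receptor signalling genes, by replicate and by whether a peak of the other list overlapped it; grey boxes and lines give the middle 50% and the median of the whole list. Peaks found again and not found again overlap in range in both replicates.

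The signalling chains of the receptor were examined first. CD79A, which encodes Igα, lies on chromosome 19 from 41877279 to 41881372. Replicate 1 had 3 peaks in its window and replicate 2 had 0, and the nearest replicate 2 summit to any of them was 185 kb away. The nearest replicate 1 summit to the gene was 1.64 kb before the annotated start, with a fold enrichment of 3.96 and a pileup of 24 (15.4 to 35.7). The other summits, 2.997 kb and 48.2 kb beyond the 3′ end, fell inside the neighbouring gene ARHGEF1, with fold enrichments of 3.59 and 3.37. CD79A thus had no region seen in both lists, although the −log10 q of its first 2 peaks, 5.34 and 5.11, was above the list median of 3.94.

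CD79B, which encodes Igβ, lies on chromosome 17 from 63928740 to 63932331. Its shared region, from 63932239 to 63932814, covers the upper end of the gene. The replicate 1 summit was 197 bp outside that end, with a fold enrichment of 2.48, and the replicate 2 summit 48 bp inside it, with 3.17. Both pileups were 21 (13.0 to 32.1). The region was weak in each list, with −log10 q of 1.53 and 2.84 where the smallest value of either list was 1.31. A second replicate 1 peak lay 2.89 kb below the gene (3.05-fold), and the nearest gene of all 3 peaks was CD79B.

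Of the 9 genes, BLK held the most peaks. BLK, a SRC family kinase of B cells, lies on chromosome 8 from 11494387 to 11564599. It had 8 peaks in each replicate and 4 shared regions. At least 4 shared regions were found at 0.471% of all genes, 8 or more replicate 1 peaks at 0.596% and 8 or more replicate 2 peaks at 0.391%. Of the 16 summits, 12 were inside the gene, and BLK was the nearest protein-coding gene for 15. The exception was a replicate 1 peak inside FAM167A, 27.0 kb below BLK.

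At BLK the shared regions lay in 2 places. The one with the highest pileup and −log10 q spanned 11532415 to 11533016, with summits 3 bp apart and 31.7 kb from the upper end of the gene. Its pileup was 43 (31.1 to 57.9) in each replicate. Replicate 1 gave it 5.58-fold enrichment over a background of 6.88, and replicate 2 gave it 3.63-fold over 11.1. With equal pileups, the fold enrichments of the lists differed here by the background alone. The adjacent region from 11530795 to 11532009 had fold enrichments of 5.08 and 4.14 at summits 477 bp apart. The other pair lay at the lower end of the gene. The region from 11499348 to 11499724 had summits 7 bp apart and 5.05 kb inside the gene, with 4.40 and 3.07, and the region from 11491723 to 11492746 had summits 40 bp apart and about 1.97 kb outside it, with 3.19 and 2.63.

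Other strong BLK peaks were in 1 list only. A replicate 1 peak 435 bp inside the lower end had a fold enrichment of 5.02, a pileup of 38 (26.9 to 52.2) and a −log10 q of 12.2, and the nearest replicate 2 summit was 2.44 kb away. In replicate 2 the highest fold enrichment at any of the 9 genes, 6.09, was 18.5 kb from the upper end of BLK, on a pileup of 20 (12.2 to 30.9), with the nearest replicate 1 summit 6.503 kb away. Neighbouring peaks of the lists also alternated without overlapping: the replicate 2 summit 25.8 kb from the upper end lay 0.862 kb from a replicate 1 summit.

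LYN, the kinase that starts the signal and that also phosphorylates CD22, lies on chromosome 8 from 55879835 to 56014169 and was counted with the activating genes. Replicate 1 had 5 peaks in its window and replicate 2 had 1. Of these, 4 replicate 1 peaks were inside the gene, at 2.56 to 59.4 kb from the nearer end, with fold enrichments of 3.25 to 4.56. None of the 4 had a replicate 2 summit closer than 41.8 kb. The shared region, from 55843749 to 55844774, lay 35.3 kb below LYN, with fold enrichments of 4.00 and 3.03 and summits 704 bp apart. TGS1 was the nearest gene to it. LYN therefore had no shared region inside the gene itself.

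BTK, the TEC family kinase downstream of LYN and SYK, lies on chromosome X from 101349450 to 101390796. Its window held 1 peak, of replicate 2. The summit was inside the gene, 4.93 kb from its upper end and 324 bp after the inner of 2 starts in the promoter table. Its fold enrichment of 5.10 rested on a pileup of 15 (8.40 to 24.7) over a background of 2.14. The nearest replicate 1 summit was 3318 kb away.

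The adaptors had shared regions near their starts or before them. BLNK lies on chromosome 10 from 96189171 to 96271569 on the minus strand, and none of its 6 summits was inside the gene. The replicate 1 summit in the stretch shown for BLNK was 171 bp before the start, with a fold enrichment of 3.94 and a pileup of 23 (14.6 to 34.5), and no replicate 2 peak overlapped it. A shared region from 96278648 to 96279325 lay 7.55 kb before the start, with summits 46 bp apart. Replicate 1 gave it 5.46-fold enrichment and replicate 2 gave 3.26-fold, on nearly equal pileups of 26 and 24. A second shared region, from 96287569 to 96288484, had 2.96 and 3.60 on pileups of 31 and 32. It lay about midway to DNTT, a polymerase gene of lymphocyte precursors, which was nearer to the replicate 2 summit.

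DAPP1, also known as BAM32, encodes an adaptor that binds phosphoinositides and lies on chromosome 4 from 99816827 to 99872333. It was the one gene of the 6 with a listed start at which both lists had a summit within 1 kb of that start. The summits were 188 bp (replicate 1) and 125 bp (replicate 2) after the start, in the region from 99816881 to 99817298. Its pileup was 25 (16.2 to 36.9) in each replicate, and its fold enrichment was 4.40 and 3.09. Replicate 2 alone had a peak 8.16 kb before the start with 5.56-fold enrichment on a pileup of 16 (9.15 to 26.0). The remaining peaks were a replicate 1 peak 5.05 kb inside the gene (3.32-fold) and a replicate 2 peak inside LAMTOR3, 22.1 kb beyond the 3′ end (3.30-fold).

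The inhibitory parts had 3 peaks each. CD22, a sialic acid binding co-receptor, lies on chromosome 19 from 35329187 to 35347361. The replicate 1 summit in the stretch shown for CD22 was 150 bp before the start. It had the highest replicate 1 fold enrichment at any of the 9 genes, 5.62, with a pileup of 28 (18.6 to 40.5) and a −log10 q of 10.3. No replicate 2 peak overlapped it, and the nearest replicate 2 summit was 19.0 kb away. Of all replicate 1 peaks whose −log10 q reached 10, 69.8% overlapped a replicate 2 peak. At the 9 genes 3 peaks reached that level, and 1 of these, in BLK, was found again.

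The shared region of CD22 lay at the other end of the gene, from 35347292 to 35348248. Its summits were 225 bp (replicate 1) and 652 bp (replicate 2) beyond the 3′ end, 427 bp apart, with fold enrichments of 2.66 and 4.92 and pileups of 33 and 24. The replicate 2 summit was inside the next gene, FFAR1, so the region cannot be given to CD22 alone.

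PTPN6, which encodes the phosphatase SHP-1, lies on chromosome 12 from 6946577 to 6961316, with 7 other protein-coding genes in its window. Its shared region, from 6943665 to 6944671, had summits 2.81 kb and 2.27 kb before the outer start and inside C12orf57. It combined the lowest fold enrichments of the shared regions, 2.12 and 2.40, with high pileups of 49 (36.3 to 64.8) and 37 (26.1 to 51.0), over backgrounds of 22.6 and 14.8. The median backgrounds of the whole lists were 5.90 and 4.63. A second replicate 1 peak, 42.1 kb away and 303 bp from LRRC23, had a fold enrichment of 2.26. PTPN6 was the nearest gene to none of its 3 peaks.

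**Figure D4:**
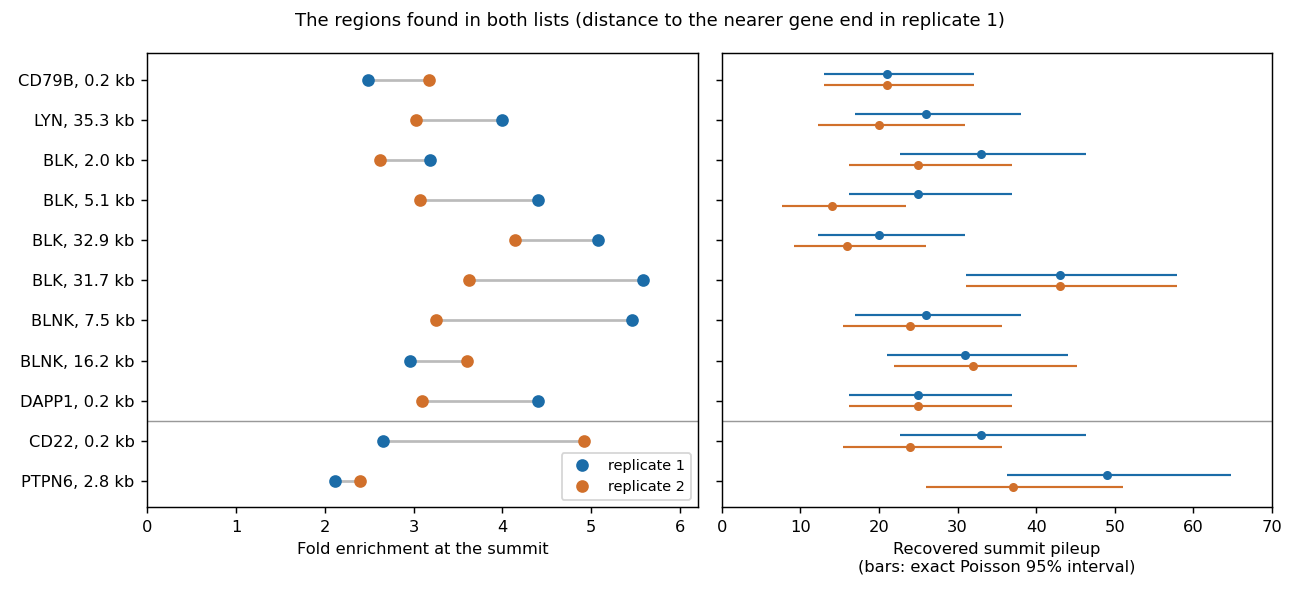
Fold enrichment (left) and recovered summit pileup with exact Poisson 95% intervals (right) in each replicate for the 11 regions found in both lists, with the 2 regions of the inhibitory genes below the line. Fold enrichment was higher in replicate 1 at 7 of the 11 regions, and the pileup intervals of the replicates overlapped at all 11.

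Across the 11 shared regions, fold enrichment ran from 2.12 to 5.58 in replicate 1 and from 2.40 to 4.92 in replicate 2. The gap between the summits of the replicates had a median of 245 bp (3 to 704), and it was within 200 bp at 5 regions: 3 in the window of BLK, of which 1 lay outside the gene, and 1 each at BLNK and DAPP1. The regions at CD79B, LYN, CD22 and PTPN6 overlapped with summits 245 to 704 bp apart.

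The 7 activating genes were then set beside the 2 inhibitory ones. Shared regions were found at 5 of 7 activating genes and at both inhibitory genes. Within 50 kb the activating genes had 23 replicate 1 and 17 replicate 2 peaks, and the inhibitory genes had 4 and 2. Per 100 kb of window this was 2.11 and 1.56 peaks for the activating genes, against 1.72 and 0.859 for the inhibitory genes, a mean difference of 0.544. The difference rested on BLK and on the window. Without BLK, a choice made after its values were seen, the activating genes had 1.63 and 0.977, and the mean difference was 0.0145. With 10 kb on each side the order turned, with 3.39 and 2.63 for the activating genes, against 4.11 and 2.74 for the inhibitory genes, and the difference was -0.418. The direction of the difference thus depended on the window, and with 2 inhibitory genes it was not tested.

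Position and strength were also set side by side, and the ranges of fold enrichment overlapped between the roles. Of the peaks at activating genes, 6 of 40 (15.0%) lay within 1 kb of an end of the gene, against 3 of 6 at the inhibitory genes, all of them at CD22. Over all 9 genes this was 22.2% of the replicate 1 peaks and 15.8% of the replicate 2 peaks. Of the whole lists, 28.5% and 31.4% lay within 1 kb of an end of any protein-coding gene. The measures are unlike, since ends of neighbouring genes count for the whole lists only. The replicate 1 peak 303 bp from LRRC23, in the PTPN6 window, was thus not counted for the 9 genes. Inside the gene lay 21 of the 40 summits at activating genes and none of those at inhibitory genes, whose gene bodies, 18.2 kb and 14.7 kb, are shorter than all activating ones except those of CD79A and CD79B. The fold enrichment of replicate 1 peaks was 2.48 to 5.58 at activating genes (median 3.96) and 2.12 to 5.62 at inhibitory genes (median 2.46), and that of replicate 2 peaks was 2.61 to 6.09 (median 3.35) and 2.40 to 4.92 (median 3.66). The medians of the roles thus lay in opposite orders in the replicates.

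Assignment by a window leaves the target gene unsettled. For 35 of the 46 peaks the nearest protein-coding gene was the one of the 9 in whose window the peak lay. For the other 11 it was a neighbour: ARHGEF1, TGS1, FAM167A, DNTT, LAMTOR3, FFAR1, C12orf57 or LRRC23. The peak closest to the 50 kb limit from within was the replicate 1 peak 48.2 kb from CD79A (3.37-fold), and the closest from outside was a replicate 1 peak 53.2 kb from BLK (3.09-fold).

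Other genes of the pathway were counted in the same way. Of 33 further genes with roles in receptor signalling, 19 had a replicate 1 peak within 50 kb (background 29.5%). The median window of the 33 was 188 kb, against 124 kb for all genes, and a longer window can hold more peaks. A replicate 2 peak lay near 16 (background 23.3%), and peaks of each list near 15 (background 15.6%). A shared region was found at 6 (18.2%, Wilson 95% interval 8.61 to 34.4), with a background of 10.2%. These genes too were chosen with earlier results known, so the interval is no test against the background. No interval was computed for the other counts, and none of these shares was tested. The shared regions were at 3 of 20 activating genes (PTPRC, NFATC1 and PIK3CD) and 3 of 13 inhibitory genes (FCGR2B, PAG1 and CSK). The median windows of these roles differed too, at 199 kb and 134 kb. PTPRC, which encodes the CD45 phosphatase, had 3 shared regions, of which the highest by the smaller of both fold enrichments had 5.36 and 5.70 at 39.6 kb outside the gene. FCGR2B, the inhibitory Fc receptor, had the highest values, 5.82 and 6.18 at 28.3 kb, nearest to FCRLA. CSK, a kinase that restrains SRC family kinases, had 2 shared regions. The higher by the same measure had 2.74 and 3.34 at a summit 6.97 kb inside the gene. PAG1, the membrane adaptor of CSK, also had 2 shared regions, the higher with 3.14 and 3.72 at 42.0 kb outside.

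Inside NFATC1, a transcription factor activated by calcium, the region had 5.24 and 3.82, and inside PIK3CD, a catalytic subunit of phosphoinositide 3-kinase, 3.43 and 2.51. SYK, the kinase recruited by the phosphorylated signalling chains, had 1 peak of each list with no overlap. PLCG2, the phospholipase that BTK activates, had 4 replicate 1 peaks and no replicate 2 peak. BCL10, an adaptor of NF-kB activation, was among the 13 genes with no peak of either list in the window. Most peaks of each list were not found in the other, so a gene without a region is not shown to lack BCL6.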

How the data were processed

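CUT&RUN libraries of BCL6 in SUDHL5 cells (2 biological replicates, grouped by sample title) were analysed from their deposited peak lists. The build was hg38 and the tools included Bowtie2 and MACS2, per the submitters' processing notes, with no version, setting or control stated. Peaks were called by the authors per sample, not on pooled samples. Each deposited peak has a fold enrichment (a ratio), −log10 of p and of q, a summit offset, and a score of 10 times −log10 q, which was not used further. Read depth is unknown.

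Summits were matched to protein-coding genes of a RefSeq table (GRCh38.p14, the assembly of hg38). Starts and promoter sequences came from RefSeq for 6 of the 9 genes. Exons, introns and UTRs were not separated, since no genome annotation at that level was used. Whole-number pileups were solved from the deposited −log10 p and fold enrichment, to within 0.001 for all 46 peaks, and the solver was tested on simulated data. Intervals are Wilson for shares and exact Poisson for pileups, both at 95%. Those for shares treat genes or peaks as independent random draws, which they were not. Python 3.11.15, scipy 1.17.1 and statsmodels 0.14.6 were used.

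The genes and lists were chosen with earlier results of these data known, so no list was tested against other genes and no p-value is given. The text names all 9 genes, up to 8 further pathway genes with the highest shared fold enrichment, and the nearest gene of a peak where it is another; SYK, PLCG2 and BCL10 were added after their values were seen.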

Additional observations from a re-analysis of the deposited data

How the results depend on the processing

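The number of the 9 genes with peaks of each list was 7, and 6 within 10 kb and 4 within 1 kb. With −log10 q of at least 5 it was 4, and with at least 10 it was 0. The lists taken alone gave 8 each. Shares of all genes were computed only for the 50 kb window with all peaks. The gene counts at other settings therefore have no background beside them and cannot be read as high or low. The 11 shared regions became 9 within 10 kb, 6 within 1 kb, 7 with reciprocal overlap of at least 50%, 5 with summits within 200 bp, 1 where −log10 q reached 5 and 0 where it reached 10. Of the 9 genes, 7 had a shared region, and 6 did within 10 kb and 4 within 1 kb. With reciprocal overlap of at least 50% it was 6 genes, and with summits within 200 bp 3. With −log10 q of at least 5 it was 1 gene, and with at least 10 it was 0. With a list left out no region can be shared, so no value was given. Further pathway genes with a shared region were 6, and 5 within 10 kb and 4 within 1 kb. They were 4 with reciprocal overlap of at least 50% and 2 with −log10 q of at least 5 or 10. Those with any peak were 16 to 19 in a list alone. The difference in peaks per 100 kb between activating and inhibitory genes was 0.544. It was -0.418 within 10 kb, -1.23 within 1 kb and 0.0145 without BLK. With −log10 q of at least 5 it was 0.349, and with at least 10 it was -0.123. The last value rested on 3 peaks, with no replicate 2 peak among them. In a list alone the difference was 0.39 to 0.699. Requiring the gene to be nearest left 35 of 46 peaks. The cause of the turned differences was not tested. No paired analysis was possible because the IgG libraries that share replicate numbers with the BCL6 libraries were not analysed here. Read totals are unknown; the median summit pileups at these genes were 25 and 20, so counting error is wide.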
